A study of Mus musculus with 6 samples.

Results

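Solute carriers are membrane proteins that move ions, metals, sugars, amino acids, nucleosides, vitamins and other small molecules across lipid bilayers, each family with substrates of its own. Some sit in the plasma membrane and set what a cell takes up or releases, while others serve the Golgi, the endoplasmic reticulum (ER), endosomes or lysosomes. Thymocytes draw on such carriers for the amino acids, monocarboxylates, nucleosides and metals that growth and division use. The genes described here are those of the deposited table whose symbol starts with Slc and whose mean count over the 6 libraries was 20 or more, without the mitochondrial Slc25 family and without 10 genes left out by name. Of 391 Slc genes among 22322 genes in the table, 47 belonged to Slc25 and 10 were left out, and 137 of the remaining 334 reached the count minimum. The other 197 genes lay under it, 103 of them with no count in any library. The closest genes above the minimum were Slc23a1 and Slc26a11, with mean counts of 20.2 and 21.7, and the closest below were Slc26a10 and Slc6a8, with 19.8 and 19.7. Since the rule used the mean over all 6 libraries, that these genes are expressed is not a finding.

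RNA-Seq was performed on CD4+CD8+ double-positive (DP) thymocytes sorted by flow cytometry from untreated young mice on the C57BL/6 background. The control group holds 3 libraries from littermates labelled WT (Paxbp1fl/fl), whose Paxbp1 has an exon flanked by loxP sites but which carry no Cre. The other group holds 3 libraries labelled Paxbp1 cKO, with the same floxed alleles and a Cre driven by the Lck promoter, which acts in the T lineage from the double-negative stage onwards. The labels do not say whether each library came from a mouse of its own, so the p-values measure the spread between libraries. Libraries held between 18963775 and 26252248 counts, and 1 count was worth 0.0381 to 0.0527 CPM (counts scaled to library size). Reads of Paxbp1 numbered 774, 318 and 400 in control libraries 1, 2 and 3, against 851, 905 and 1075 where the label was cKO (edgeR adjusted p = 0.0977). As they cover the whole gene and not the floxed exon alone, they cannot check the labels, on which each direction below rests. Markers of DP thymocytes summed to 16684 to 19091 CPM in control and 12315 to 14203 CPM in the libraries labelled cKO, and 6 of the 14 fell. In bulk samples, fewer cells of a type and less RNA per cell cannot be told apart. Of markers of other cells, 5 of 13 tested macrophage genes were higher, 1 of 4 dendritic cell genes was higher, 1 of 2 B cell genes was lower, and 0 of 3 thymic epithelial genes passed in edgeR, with 0 at an unadjusted p below 0.05. Neutrophil and platelet markers summed to at most 0.312 and 1.64 CPM in a library.

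The name plasma membrane carriers covers these genes only in part. The component terms in the deposited table place 80 of the 137 genes in the plasma membrane and 57 not, and 37 of these 57 carry a term for the Golgi, the ER, lysosomes or endosomes. Grouped by what their families are known for, 57 genes encode proteins that act mainly inside the cell. Among them are the 21 genes of the Slc35 family, which feeds nucleotide sugars and related substrates into the Golgi and ER. A further 3 genes, Slc9a3r1, Slc4a1ap and Slc7a6os, have the Slc prefix but no known carrier activity. They are therefore called Slc genes here.

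All 137 genes passed the filter on low counts, and edgeR's quasi-likelihood test compared the genotypes over all 11488 tested genes. At an adjusted p below 0.05, 6 Slc genes were higher and 5 lower in the libraries labelled cKO. The 6 were Slc40a1, Slco4a1, Slc35d2, Slc22a5, Slc39a8 and Slc30a5, and the 5 were Slc37a2, Slc16a6, Slc30a4, Slc14a1 and Slc44a2. These 11 genes are 8.03% of the 137, where 10.4% of all tested genes passed, 4.47% higher and 5.89% lower. With an absolute log2 fold change above 1 as well, 3 were higher and 2 lower, which is 3.65% against 2.76% of all tested genes (1.53% higher and 1.23% lower). The shares are near those of all tested genes, so the count is not a result about Slc genes as a group. Below, genes that passed, rose, fell or were called did so in edgeR with all 6 libraries, unless another tool is named. Log2 fold changes are given with a standard error (SE). It was derived as the absolute log2 fold change over the square root of the F statistic of the quasi-likelihood test. The median over the Slc genes was -0.0041, against -0.0017 over all tested genes, with 67 genes above 0 and 70 below. The median absolute log2 fold change was 0.29 for the Slc genes and 0.30 for all tested genes, and 104 of the 137 differed by less than 1.5-fold. Control and cKO libraries did not overlap for 41 Slc genes (19 higher and 22 lower), 29.9%, where this held for 33% of all tested genes (15.7% higher and 17.3% lower). An unadjusted edgeR p below 0.05 was found for 35 of the 137 Slc genes and for 3204 of the 11488 tested genes.

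**Figure D1:**
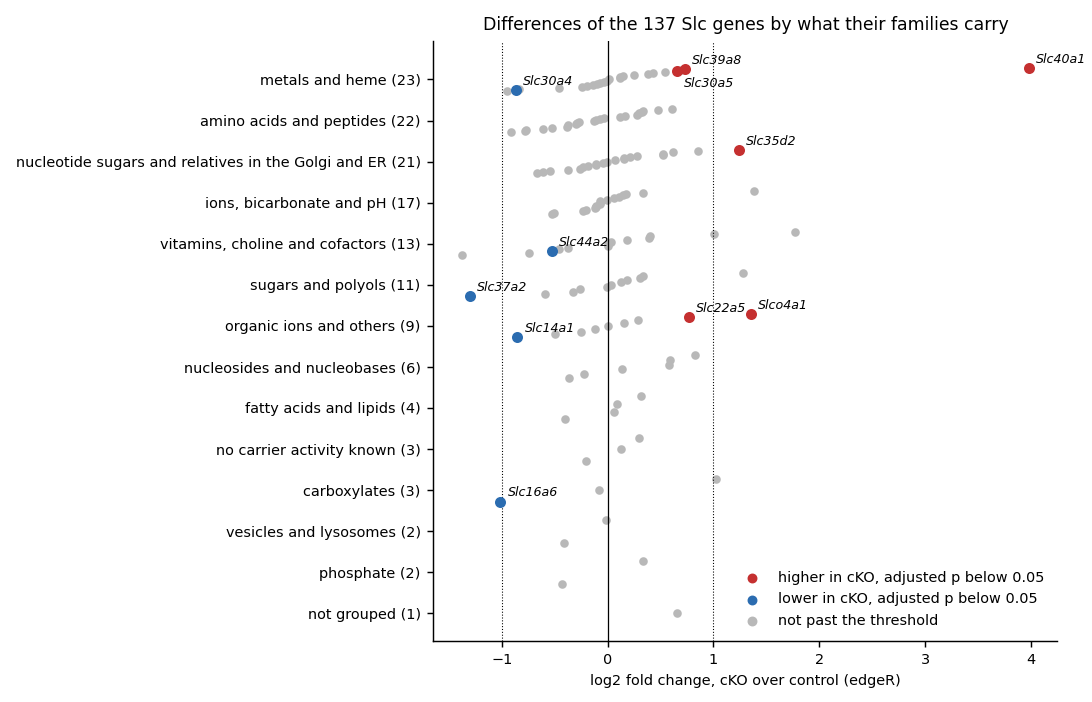
Each point is 1 of the 137 Slc genes, placed by its log2 fold change of the libraries labelled cKO over control (horizontal axis, edgeR) and by the substrate of its family (rows). Coloured points passed an adjusted p of 0.05. Most points lie near 0, and the 11 that passed are spread over 6 groups, with Slc40a1 farthest to the right at 3.98.

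The calls depended on single libraries, on the library labelled cKO 3 above all. Without it, 0 of the 137 Slc genes passed in edgeR, where 1.02% of all tested genes passed. An unadjusted p below 0.05 was found for 22 of the 137 without it, against 35 with all 6 libraries. The number of all tested genes at that unadjusted p was not counted without cKO 3. DESeq2 and limma-voom were not run on those 5 libraries. Slc37a2 and Slc16a6 lost the call without that library alone (edgeR adjusted p = 0.0517 and 0.0678). The other 9 genes each lost it in at least 3 of the 6 fits that left out 1 library, and Slc39a8 lost it in all 6. No gene kept its call in all of them, and none of the 11 changed direction. Under DESeq2, 13 Slc genes were higher and 10 lower, 16.8% of the Slc genes against 16.9% of all tested genes, and all 11 edgeR calls were among them.

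**Figure D2:**
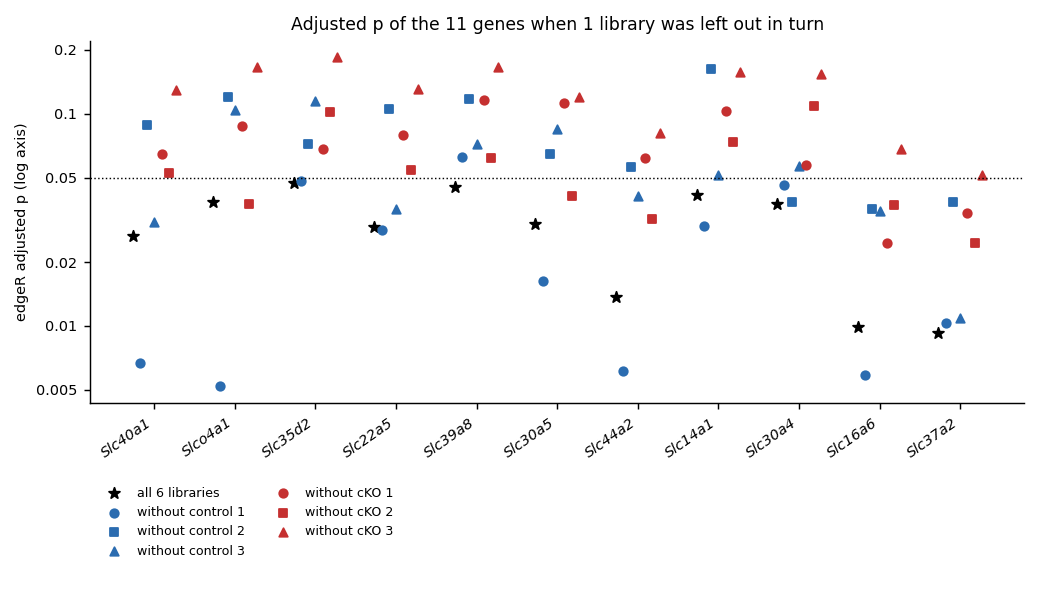
The edgeR adjusted p (log axis) of the 11 Slc genes with all 6 libraries and with 1 library left out in turn, beside a line at 0.05. Without the library labelled cKO 3, all 11 genes lie on the side of the line that does not pass, with Slc37a2 nearest to it at 0.0517.

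Metal carriers held 4 of the 11 genes, 3 higher and 1 lower among 23 measured, which is 17.4% where 10.4% of all tested genes passed. DESeq2, which called 16.9% of all tested genes, called 4 higher and 2 lower, with Slc31a1 and Slc39a13 added. Zinc enters the cytosol through carriers of the Slc39 (ZIP) family, while those of the Slc30 (ZnT) family as a rule move it out of the cytosol, into vesicles or across the plasma membrane. Of the 6 Slc30 genes measured, Slc30a5 rose, Slc30a4 fell and 4 did not pass. Of the 10 Slc39 genes, Slc39a8 rose and 9 did not pass in edgeR. The 250 bases before the annotated start of these 3 genes are shown because the genes share a substrate and passed in different directions. They are from RefSeq on GRCm38.p6, written 5′ to 3′ on the strand of the gene. Capitals mark matches on either strand to TGCACNC or TGCGCNC, the core of the metal response element that the zinc sensor Mtf1 binds.
Slc30a5: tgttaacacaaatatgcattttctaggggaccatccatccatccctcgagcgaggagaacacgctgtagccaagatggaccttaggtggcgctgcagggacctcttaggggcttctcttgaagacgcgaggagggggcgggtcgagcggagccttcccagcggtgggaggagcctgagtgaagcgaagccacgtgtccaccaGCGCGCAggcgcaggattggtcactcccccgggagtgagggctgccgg
Slc30a4: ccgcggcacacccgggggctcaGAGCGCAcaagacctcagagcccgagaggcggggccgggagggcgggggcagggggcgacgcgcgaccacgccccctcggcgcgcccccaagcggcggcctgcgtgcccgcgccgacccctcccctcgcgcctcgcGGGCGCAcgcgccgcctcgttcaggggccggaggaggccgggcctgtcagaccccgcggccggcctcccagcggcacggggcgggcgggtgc
Slc39a8: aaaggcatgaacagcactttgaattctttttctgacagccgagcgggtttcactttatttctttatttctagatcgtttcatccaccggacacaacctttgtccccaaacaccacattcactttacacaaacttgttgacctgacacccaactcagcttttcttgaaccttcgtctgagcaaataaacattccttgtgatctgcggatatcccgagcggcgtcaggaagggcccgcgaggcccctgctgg
These windows lie at chr13:100833428-100833677 (minus strand), chr2:122702664-122702913 (minus strand) and chr3:135825029-135825278 (plus strand). The Slc30a5 window held 1 match, that of Slc30a4 held 2 and that of Slc39a8 held 0. A match stood in 21.4% of all 32851 windows of this length in the RefSeq table and in 33 of the 107 Slc genes with a window (30.8%). The matches describe the letters and do not measure binding.

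Slc30a5 (ENSMUSG00000021629, chromosome 13 from 100802648 to 100833427, minus strand, on GRCm38 here and below) encodes ZnT5, which loads zinc into the early secretory pathway. It had 78.3, 77.7 and 57.5 CPM in control and 126, 96.6 and 112 CPM in the libraries labelled cKO. Control library 3 was the lowest, and the groups did not overlap. The means of 71.2 ± 11.9 and 112 ± 14.8 CPM (n = 3 each, mean ± S.D.) gave a log2 fold change of 0.65 (SE 0.16, edgeR adjusted p = 0.0301). Slc30a6, whose product ZnT6 pairs with ZnT5, had a log2 fold change of 0.38 and did not pass (SE 0.19, edgeR adjusted p = 0.226).

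Slc30a4 (ENSMUSG00000005802, chromosome 2 from 122681233 to 122702663, minus strand) encodes ZnT4, a carrier of endosomes and secretory vesicles. Its level was 107, 59.1 and 70.2 CPM in control and 52.95, 37.9 and 38.6 CPM in the libraries labelled cKO. Control library 1 stood above the other control libraries, and control library 2 lay just above cKO 1, so the groups were apart by a small gap. Going from 78.8 ± 25.1 to 43.2 ± 8.50 CPM (n = 3 each, mean ± S.D.), this was a log2 fold change of -0.87 (SE 0.22, edgeR adjusted p = 0.0376). With control library 1 left out it was -0.59 (edgeR adjusted p = 0.0462). Slc39a8 (ENSMUSG00000053897, chromosome 3 from 135825279 to 135888572, plus strand) encodes ZIP8, which brings zinc and manganese into the cytosol. It was measured at 10.5, 12.6 and 13.8 CPM in control and 21.1, 17.9 and 22.4 CPM in the libraries labelled cKO. No control library reached the lowest of the others. The means of 12.3 ± 1.67 and 20.5 ± 2.34 CPM (n = 3 each, mean ± S.D.) gave a log2 fold change of 0.73 (SE 0.20, edgeR adjusted p = 0.0450).

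The other zinc carriers did not pass in edgeR. Slc39a13, a carrier of the Golgi and ER, had a log2 fold change of -0.84 (SE 0.25, edgeR adjusted p = 0.0567) and was called lower by DESeq2. Slc30a1, the zinc exporter of the plasma membrane and a known target of Mtf1, had 0.69 (SE 0.33, edgeR adjusted p = 0.202). The libraries of the groups were apart for both genes. The median log2 fold change was 0.25 over the 6 Slc30 genes and -0.067 over the 10 Slc39 genes. Slc39a7, the highest of the metal carriers with a mean of 51.4 FPKM (reads scaled to gene length and library size by the authors), had a log2 fold change of -0.20 (SE 0.11, edgeR adjusted p = 0.277). Mtf1 itself had 0.082 (SE 0.17, edgeR adjusted p = 0.804). The metallothionein genes Mt1 and Mt2, which buffer zinc, stayed at or under 1.05 and 2.17 CPM in every library, short of the threshold (edgeR adjusted p = 0.844 and 0.550).

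**Figure D3:**
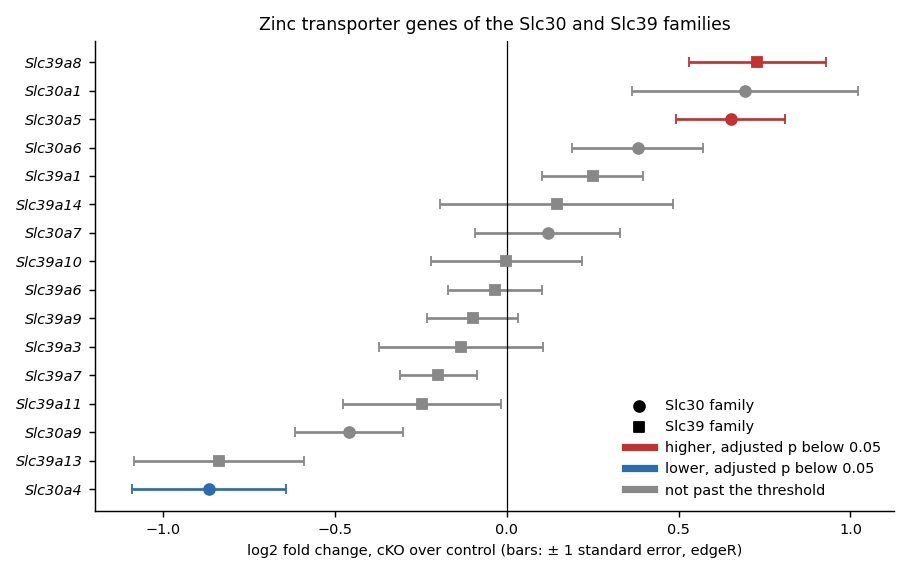
Log2 fold change of the libraries labelled cKO over control (edgeR) with its standard error for the 6 Slc30 genes and the 10 Slc39 genes. Slc39a8 and Slc30a5 were higher and Slc30a4 lower at an adjusted p below 0.05, and members of either family lie on both sides of 0.

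Slc40a1 (ENSMUSG00000025993, chromosome 1 from 45908068 to 45926523, minus strand) encodes ferroportin, the iron exporter of the plasma membrane, best known from macrophages that recycle iron and from the gut. Its reads numbered 14, 4 and 0 in control libraries 1, 2 and 3, against 76, 78 and 149 where the label was cKO. Scaled to library size this was 0.726, 0.206 and 0 CPM in control and 3.47, 4.06 and 6.88 CPM in the libraries labelled cKO, and a count of 0 in control library 3 allows up to 0.116 CPM (3 counts, counting error only). All control libraries lay below the others. Each of them was also under the count minimum of 20, so the gene was a member only through the group where it was high, and its call and rank follow in part from that. The log2 fold change of 3.98 was the largest among the 137 genes (SE 0.93, edgeR adjusted p = 0.0265), but it depends on few control counts and ran from 3.35 to 5.60 when 1 library was left out. Markers of macrophages were higher beside it. Of 20 listed, 13 were tested, 5 were higher and 0 lower, the median log2 fold change of the 13 was 1.51, and the list summed to 55.7 to 102 CPM in control and 117 to 159 CPM in the libraries labelled cKO. Adgre1 (F4/80) had 0, 0 and 0 CPM in control and 2.28, 2.19 and 2.40 CPM in the libraries labelled cKO, and Timd4 and Fcgr1 were also at 0 in every control library. Mertk and Marco had no count in any library. The part of macrophage RNA in the level of Slc40a1 was not tested.

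Of the other Slc genes tied to macrophages, Slc37a2 fell and is described with the sugar carriers. Slc29a3 and Slc43a2, given below with the nucleoside and amino acid carriers, were not called by edgeR (adjusted p = 0.0722 and 0.115). Their log2 values were -0.37 and -0.52, and for both genes every library labelled cKO lay below every control library. DESeq2 called Slc29a3 lower but not Slc43a2. Slc7a7, a cationic amino acid exporter, was at or under 2.68 CPM in every library, with a log2 fold change of -0.77 (SE 0.98, edgeR adjusted p = 0.663), and Slc11a1 and Slc15a3 lay under the count minimum. Among the copper and iron carriers, Slc31a1, the copper importer of the plasma membrane, had 68.9, 85.4 and 81.9 CPM in control and 104, 99.5 and 114 CPM in the libraries labelled cKO. The groups did not overlap, yet the log2 fold change of 0.43 missed the threshold in edgeR (SE 0.13, edgeR adjusted p = 0.0608), while DESeq2 called it higher. Slc11a2, which brings ferrous iron out of endosomes, had 0.12 (SE 0.14, edgeR adjusted p = 0.653). The transferrin receptor Tfrc had 0.52 (SE 0.17, edgeR adjusted p = 0.0825) and was called by DESeq2.

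Sugar and monocarboxylate carriers held the 2 genes that were lower past the fold threshold. Slc37a2 (ENSMUSG00000032122, chromosome 9 from 37227585 to 37255738, minus strand) encodes an ER protein that exchanges glucose 6-phosphate for phosphate. It had 90.4, 95.3 and 60.5 CPM in control and 38.5, 37.9 and 23.3 CPM in the libraries labelled cKO. Control library 3 and cKO 3 were the lowest of their groups, and the groups did not overlap. The means of 82.1 ± 18.8 and 33.2 ± 8.64 CPM (n = 3 each, mean ± S.D.) gave a log2 fold change of -1.30 (SE 0.23, edgeR adjusted p = 0.00926). Its relative Slc37a1 had -0.59 and did not pass in edgeR (SE 0.18, edgeR adjusted p = 0.0632). Slc37a3 and Slc37a4, the latter the glucose 6-phosphate carrier of gluconeogenesis, had 0.19 and 0.036 (edgeR adjusted p = 0.683 and 0.955). Of the 11 sugar and polyol genes, 1 was lower and 10 did not pass in edgeR, and DESeq2 called Slc37a1 lower as well. The edgeR share was 9.09%, where 10.4% of all tested genes passed, and DESeq2 called 16.9% of all tested genes. The highest of them per gene length was Slc50a1, with a mean of 26.7 FPKM and a log2 fold change of -0.26 (SE 0.17, edgeR adjusted p = 0.348). Slc2a4, the insulin-responsive glucose carrier GLUT4, was at or under 2.77 CPM in every library, with 1.28 (SE 0.53, edgeR adjusted p = 0.151).

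Slc16a6 (ENSMUSG00000041920, chromosome 11 from 109450855 to 109473598, minus strand) encodes MCT7, a member of the monocarboxylate family linked to the transport of ketone bodies. It had 42.7, 46.1 and 55.3 CPM in control and 29.2, 21.5 and 20.7 CPM in the libraries labelled cKO. No library of either group reached into the other. Going from 48.03 ± 6.54 to 23.8 ± 4.71 CPM (n = 3 each, mean ± S.D.), the log2 fold change was -1.01 (SE 0.18, edgeR adjusted p = 0.00993), just past the fold threshold, and with total counts alone it was -0.99. Exons of Amz2 on the other strand cover 21.5% of its exonic bases, and no source used here says whether reads were counted by strand. Amz2 had a log2 fold change of -0.37 (SE 0.15, edgeR adjusted p = 0.147). Slc16a1, or MCT1, which carries lactate and pyruvate, was more abundant, with a mean of 108 FPKM against 17.4 FPKM for Slc16a6. It had a log2 fold change of -0.085 (SE 0.10, edgeR adjusted p = 0.635), and its chaperones Bsg and Emb had -0.083 and 0.10 (edgeR adjusted p = 0.810 and 0.557). Slc16a3, or MCT4, was at or under 4.75 CPM in every library, with 1.03 (SE 0.63, edgeR adjusted p = 0.323).

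**Figure D4:**
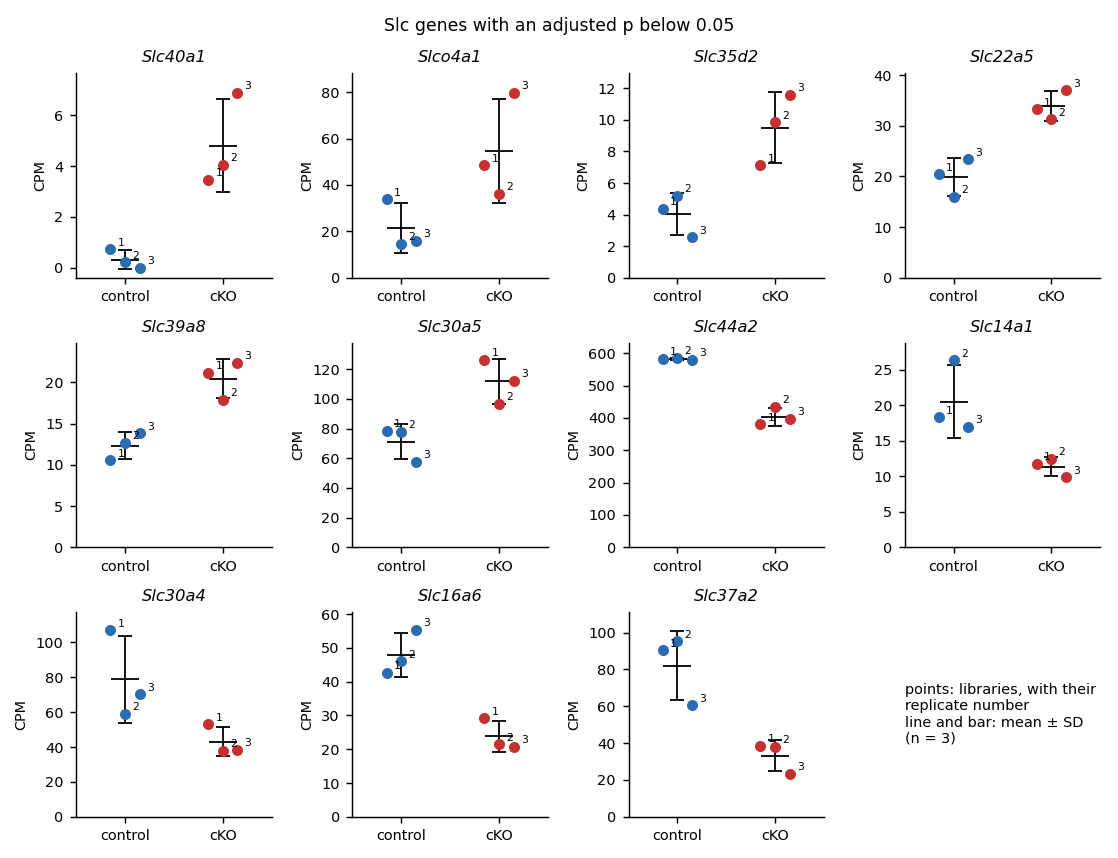
CPM of the 11 Slc genes with an edgeR adjusted p below 0.05, 1 panel a gene. Points are the libraries of control and of the group labelled cKO, with the mean and S.D. (n = 3). In each panel the groups do not overlap, and Slc44a2 lies at 579 to 586 CPM in control and 380 to 434 CPM in the libraries labelled cKO.

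Carriers of choline, vitamins and cofactors held 1 gene called by edgeR among 13, while DESeq2 called 3 and limma-voom 2. Over all tested genes, edgeR called 10.4%, DESeq2 16.9% and limma-voom 11.5%. Slc44a2 (ENSMUSG00000057193, chromosome 9 from 21320698 to 21355028, plus strand) encodes CTL2, a choline transporter-like protein, with a mean of 149 FPKM, below Slc29a1 alone among the 137 genes. It had 582, 586 and 579 CPM in control and 380, 434 and 398 CPM in the libraries labelled cKO. The control libraries lay within a few CPM of each other, above all the others. The means of 582 ± 3.55 and 404 ± 27.7 CPM (n = 3 each, mean ± S.D.) gave a log2 fold change of -0.53 (SE 0.10, edgeR adjusted p = 0.0137), a level 1.44-fold lower. Its relatives Slc44a1 and Slc44a3 had 0.029 and -1.38, short of the threshold (edgeR adjusted p = 0.927 and 0.252), and Slc44a3 was at or under 2.54 CPM throughout. Slc23a4, of the ascorbate and nucleobase transporter family, had 0.778, 4.88 and 3.26 CPM in control and 12.3, 8.85 and 9.32 CPM in the libraries labelled cKO. The groups did not overlap, and its log2 fold change of 1.77 narrowly missed the threshold in edgeR (SE 0.52, edgeR adjusted p = 0.0542). It was called by DESeq2 (adjusted p = 0.00561) and limma-voom (adjusted p = 0.0294). EdgeR called it with no filter on low counts (adjusted p = 0.0240), with a filter at 5 CPM (adjusted p = 0.0379) and without control library 1 (adjusted p = 0.0235), and its adjusted p reached 0.158 without cKO 1. Slc5a6, the carrier of biotin and pantothenate, had 1.0 (SE 0.31, edgeR adjusted p = 0.0647) and was called higher by DESeq2.

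Organic ion carriers and the urea transporter held 3 called genes among 9, which is 33.3% of a small group where 10.4% of all tested genes passed. Slco4a1 (ENSMUSG00000038963, chromosome 2 from 180456245 to 180474867, plus strand) encodes an organic anion transporter that takes up thyroid hormones. It had 33.8, 14.7 and 16.00 CPM in control and 48.5, 36.2 and 79.8 CPM in the libraries labelled cKO. Control library 1 and cKO 3 stood above the rest of their groups, and control library 1 came close to cKO 2. The means of 21.5 ± 10.7 and 54.8 ± 22.5 CPM (n = 3 each, mean ± S.D.) gave a log2 fold change of 1.35 (SE 0.35, edgeR adjusted p = 0.0384), and without cKO 3 it was 0.98 (edgeR adjusted p = 0.166). Slc22a5 (ENSMUSG00000018900, chromosome 11 from 53864542 to 53891660, minus strand) encodes OCTN2, the carnitine importer that serves fatty acid oxidation. It had 20.4, 15.99 and 23.3 CPM in control and 33.2, 31.2 and 37.02 CPM in the libraries labelled cKO. The groups did not overlap. Going from 19.9 ± 3.70 to 33.8 ± 2.94 CPM (n = 3 each, mean ± S.D.), the log2 fold change was 0.76 (SE 0.18, edgeR adjusted p = 0.0293). Slc10a3, the most abundant gene of the group per length, had a mean of 12.99 FPKM and a log2 fold change of 0.15 (SE 0.20, edgeR adjusted p = 0.668).

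Slc14a1 (ENSMUSG00000059336, chromosome 18 from 78100091 to 78142119, minus strand) encodes the urea transporter UT-B, best known from red blood cells. It had 18.3, 26.3 and 16.9 CPM in control and 11.8, 12.4 and 9.83 CPM in the libraries labelled cKO. Control library 2 was the highest, and the groups did not overlap. The means of 20.5 ± 5.08 and 11.4 ± 1.36 CPM (n = 3 each, mean ± S.D.) gave a log2 fold change of -0.85 (SE 0.23, edgeR adjusted p = 0.0413), and limma-voom did not call it (adjusted p = 0.0501). Control library 2 also had the most erythroid RNA. The 8 listed erythroid markers summed to 28.2, 141 and 58.8 CPM in control and 1.92, 34.99 and 49.2 CPM in the libraries labelled cKO. None of them was at 0 in every library, and 0 of the 5 tested passed in edgeR or DESeq2. The part of erythroid RNA in the level of Slc14a1 was not tested. Without control library 2 the log2 fold change of Slc14a1 was -0.63 (edgeR adjusted p = 0.163).

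Carriers of nucleotide sugars, which supply the glycosylation of surface proteins, included 21 genes of the Slc35 family. Of these, 1 was higher and 20 did not pass in edgeR, while DESeq2 and limma-voom each called 2 higher. The edgeR share was 4.76%, where 10.4% of all tested genes passed. DESeq2 called 16.9% and limma-voom 11.5% of all tested genes. Slc35d2 (ENSMUSG00000033114, chromosome 13 from 64096308 to 64129368, minus strand) encodes a Golgi carrier of UDP-N-acetylglucosamine. It had 4.36, 5.19 and 2.56 CPM in control and 7.12, 9.84 and 11.6 CPM in the libraries labelled cKO. The groups were apart, with cKO 1 nearest to control. The means of 4.04 ± 1.34 and 9.52 ± 2.25 CPM (n = 3 each, mean ± S.D.) gave a log2 fold change of 1.24 (SE 0.35, edgeR adjusted p = 0.0472). Its relative Slc35d1, an ER carrier of UDP-glucuronic acid and UDP-N-acetylgalactosamine, was more abundant, with a mean of 54.2 FPKM against 3.88 FPKM. Slc35d1 had 227, 163 and 129 CPM in control and 258, 252 and 287 CPM in the libraries labelled cKO. Its groups were apart as well, but its log2 fold change of 0.62 missed the threshold in edgeR (SE 0.18, edgeR adjusted p = 0.0564), and both DESeq2 and limma-voom called it higher. Slc35a4, the most abundant of the family at a mean of 110 FPKM, had 0.16 (SE 0.13, edgeR adjusted p = 0.477). The CMP-sialic acid carrier Slc35a1 had -0.26 (SE 0.25, edgeR adjusted p = 0.533).

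Amino acid and peptide carriers made up 22 genes, and 0 of them passed in edgeR or limma-voom. At an unadjusted edgeR p below 0.05 were 5 of them, where 3204 of the 11488 tested genes were. DESeq2 called Slc38a2 higher and Slc43a1 lower. The shares over all tested genes were 10.4% in edgeR, 16.9% in DESeq2 and 11.5% in limma-voom. The median log2 fold change was -0.12, with 8 genes above 0 and 14 below. Slc38a2, or SNAT2, a sodium-coupled importer of small neutral amino acids, was the most abundant per gene length, with a mean of 135 FPKM. It had 695, 390 and 411 CPM in control and 788, 580 and 907 CPM in the libraries labelled cKO. Control library 1 lay above cKO 2, so the groups overlapped, and the log2 fold change was 0.61 (SE 0.23, edgeR adjusted p = 0.115). Slc43a1, or LAT3, a carrier of branched-chain amino acids, had 121, 135 and 126 CPM in control and 98.6, 93.3 and 101 CPM in the libraries labelled cKO. Its groups did not overlap, and the log2 fold change was -0.38 (SE 0.11, edgeR adjusted p = 0.0539). Slc43a2, or LAT4, had -0.52 (SE 0.20, edgeR adjusted p = 0.115). Slc38a9, the lysosomal arginine sensor upstream of mTORC1, had -0.30 (SE 0.14, edgeR adjusted p = 0.208).

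Carriers of nucleosides and nucleobases included the most abundant of the 137 genes, Slc29a1, or ENT1, which equilibrates nucleosides across the plasma membrane. It had 121, 162 and 184 FPKM in control and 161, 179 and 175 FPKM in the libraries labelled cKO. The groups overlapped, and the log2 fold change was 0.13 (SE 0.15, edgeR adjusted p = 0.615). In edgeR and limma-voom 0 of the 6 genes passed, against 10.4% and 11.5% of all tested genes. An unadjusted edgeR p below 0.05 was found for 3 of the 6 and for 3204 of the 11488 tested genes. DESeq2, which called 16.9% of all tested genes, called those 3. Slc43a3, a nucleobase carrier, had 0.58 (SE 0.17, edgeR adjusted p = 0.0545), and Slc29a3, the lysosomal nucleoside carrier, had -0.37 (SE 0.12, edgeR adjusted p = 0.0722). The third was Slc28a2b with 0.59 (SE 0.19, edgeR adjusted p = 0.0787). Its near-identical relative Slc28a2 had -0.23 (SE 0.13, edgeR adjusted p = 0.276), and since the counting could split reads between the pair, both values are uncertain.

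Carriers of ions and bicarbonate, which set cell volume and pH, held 17 genes, and 0 passed in edgeR or limma-voom. In edgeR 2 of the 17 had an unadjusted p below 0.05, where 3204 of the 11488 tested genes had. DESeq2 called 1 lower. Of all tested genes, 10.4% passed in edgeR, 16.9% in DESeq2 and 11.5% in limma-voom. Slc12a7, a potassium-chloride cotransporter, had 80.8, 98.5 and 77.5 CPM in control and 67.7, 67.2 and 44.04 CPM in the libraries labelled cKO. Its groups were apart, with a log2 fold change of -0.52 (SE 0.18, edgeR adjusted p = 0.0920). Slc9a9, a sodium-proton exchanger of endosomes, was the most abundant of the group at a mean of 51.5 FPKM, with -0.20 (SE 0.12, edgeR adjusted p = 0.309). Slc26a11, one of the genes nearest the count minimum, had a log2 fold change of 1.38 (SE 0.71, edgeR adjusted p = 0.239). Its reads numbered 5, 20 and 11 in control libraries 1, 2 and 3, against 31, 27 and 36 where the label was cKO. The gene was thus a member only through the group where it was high, and its fold change follows in part from that.

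The smaller groups held no gene called by edgeR, DESeq2 or limma-voom, which called 10.4%, 16.9% and 11.5% of all tested genes. The phosphate importer Slc20a1 had a mean of 35.4 FPKM and a log2 fold change of 0.33 (SE 0.17, edgeR adjusted p = 0.243). Among the 4 fatty acid carriers, Slc27a1 was the most abundant at a mean of 20.2 FPKM, with 0.093 (SE 0.16, edgeR adjusted p = 0.759). Slc17a5, which exports sialic acid from lysosomes, had a mean of 10.5 FPKM and -0.41 (SE 0.17, edgeR adjusted p = 0.151). The scaffold gene Slc9a3r1 had a mean of 121 FPKM and -0.21 (SE 0.12, edgeR adjusted p = 0.296). Slc66a2, placed in no group, had a mean of 12.95 FPKM and 0.66 (SE 0.24, edgeR adjusted p = 0.105). In these groups 2 genes, Slc17a5 and Slc66a2, had an unadjusted edgeR p below 0.05, where 3204 of the 11488 tested genes had.

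Over all 137 genes, mean levels ran from 0.172 to 164 FPKM with a median of 8.87. Above 100 FPKM lay 7 genes, Slc29a1, Slc44a2, Slc38a2, Slc38a6, Slc9a3r1, Slc35a4 and Slc16a1, and 17 genes lay under 1 FPKM. Together the Slc genes took between 0.721% and 0.813% of the counts of a library, with both extremes among the control libraries. Within groups the median coefficient of variation of the Slc genes was 16.9% in control and 17.6% in the libraries labelled cKO, against 16.3% and 13.3% over all tested genes.

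Carriers with other names, and genes that chaperone or regulate carriers, were read from a list of 51 genes. Of these 48 were tested, 1 was higher and 4 lower, with 4 and 4 under DESeq2. The counts are near the shares over all tested genes, 10.4% in edgeR and 16.9% under DESeq2, so they are not a result about the list. The higher gene was Mfsd14b, with a log2 fold change of 0.53 (SE 0.13, edgeR adjusted p = 0.0275). Spns3, of the lysolipid carrier family, fell, with -1.05 (SE 0.23, edgeR adjusted p = 0.0212). Txnip and Arrdc3 encode arrestin-like proteins that draw membrane proteins, glucose carriers in the case of Txnip, inside the cell. Both fell, by log2 values of -1.04 and -1.84 (edgeR adjusted p = 0.00495 and 0.00408).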

How the data were processed

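DP thymocytes of 3 control and 3 Paxbp1 cKO libraries were profiled by RNA-Seq of pre-amplified cDNA on an Illumina HiSeq2500. The authors deposited 1 table, whose count columns hold reads per gene and library without normalization. The FPKM columns, also deposited, scale these for gene length and depth. The authors' own comparison (deposited log2 ratios, p-values and FDR) was not used, nor were their group means. The submitters' processing notes name fastp 0.18.0, Bowtie2 2.2.8, HISAT2, StringTie 1.3.1 and RSEM without roles, and no source used here gives the genome build or annotation. All columns with values per library were mapped, so 0 were left out.

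The test was run in edgeR 4.0.16 under R 4.3.3 (filterByExpr at 10 counts and 15 in total, TMM, quasi-likelihood test with genotype as the only term, Benjamini-Hochberg adjustment over 11488 genes). Thresholds were an adjusted p below 0.05 and, where said, an absolute log2 fold change above 1. The scripts were tested on simulated data. Replicate libraries were checked and were not duplicates. CPM values are TMM-scaled, and levels between genes are compared as FPKM. Gene positions were read from GENCODE M21 (GRCm38), and promoter windows, found for 107 of the 137 genes, from RefSeq. Protein sequences were not used here.

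The members, groups and lists were chosen with earlier results of these data known. Genes were named if called, the most abundant of their group, next to the count minimum, among the 5 largest differences not called, or tied to macrophages. Other named genes, and the groups of Slc6a20b, Slc28a2b and Slc7a6os, were chosen after values were seen. Alternatives were DESeq2 1.42.0, limma-voom (limma 3.58.1), RLE factors, total counts alone, other filters, the replicate number as a block, leaving out each library, count minimums of 10 and 50, and carriers of the surface alone. Some genes counted in the text are not reported here by name.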

Additional observations from a re-analysis of the deposited data

How the results depend on the processing

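Under DESeq2, 13 Slc genes were higher and 10 lower, 5 of them higher past the fold threshold, against 6, 5 and 3 in edgeR. The number lower past the fold threshold was 1 in place of 2 with total counts alone and with a filter at a mean of 5 CPM. Among the 77 genes left without those that act inside the cell or have no carrier activity known, 3 were lower, 1 of them past the fold threshold. Leaving out 1 library gave 0 to 9 higher and 0 to 8 lower, and past the fold threshold 0 to 4 higher and 0 to 3 lower, with medians of the log2 fold change from -0.042 to 0.029. Over these fits the share called ran from 0% to 12.4% of the Slc genes and from 1.02% to 17.1% of all tested genes. The cause of these differences was not tested. Of 142 alternative values of the 11 called genes, 98 kept the call, 44 lost it and 0 changed direction. Of the 44, 41 came from leaving out a library, and the others were Slc14a1 under limma-voom (adjusted p = 0.0501) and Slc35d2 and Slc39a8 with the replicate number as a term. Slc40a1 had no value with the filter at 5 CPM. Correlations between control and cKO libraries of the same replicate number were 0.045, 0.038 and -0.030, against -0.079 to 0.040 for unlike numbers. They compare deviations from means of only 3 libraries a group, so they cannot show whether the libraries were paired. With the replicate block, 7 Slc genes were higher and 6 lower, and Slc35d2 and Slc39a8 lost the call (edgeR adjusted p = 0.0640 and 0.0559) while the other 9 kept it.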

Other observations

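Of the 10 Slc genes left out by name, 9 were tested, and edgeR gave 2 higher (Slc7a3 and Slc7a5) and 1 lower (Slc16a5) at an adjusted p below 0.05. DESeq2 gave 4 higher and 2 lower. Over all tested genes, edgeR called 10.4% and DESeq2 16.9%.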
